A study of Mus musculus with 933 samples.

Results

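The transcripts described here are the 8 genes that encode the positive elongation factor P-TEFb, its inhibitors and its closest partners in mouse preimplantation embryos. They are Hexim1, Hexim2, Cdk9, Ccnt1, Ccnt2, Larp7, Mepce and Aff4, matched by gene symbol in every one of the 12 deposited tables, and they are 8 of 23845 genes listed. Each library is the RNA of 1 whole FVB embryo made by intracytoplasmic sperm injection (ICSI) and sequenced by the Smart-seq2 protocol, and the values are TPM, transcript abundance scaled for transcript length and for the library's total. The 933 embryos fall into 33 groups of 8 to 42 embryos.

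At the 2-cell stage, embryos from sperm of the caput, the head of the epididymis, were compared with embryos from sperm of the cauda, its tail, at 18 h (19 caput and 25 cauda embryos), 24 h (11 and 8) and 28 h (25 and 24) after ICSI. Later uninjected caput and cauda groups were a first 4-cell cohort (32 and 32), 8-cell embryos (28 and 25), morulae (29 and 31), and a first (35 and 42) and second (34 and 39) blastocyst cohort. Sperm taken from the testis was set against cauda sperm in 4-cell embryos (34 and 33), morulae (34 and 34) and blastocysts (28 and 29). In a second 4-cell cohort, caput embryos were left uninjected (23) or injected with RNA labelled EpiM miRNA (22) or EpiM tRF (21), beside uninjected cauda embryos (23). The same 4 treatments were used in a blastocyst cohort (32 caput, 30 miRNA, 30 tRF and 31 cauda embryos). In another blastocyst cohort, caput embryos injected with GFP (26) or with RNA labelled EpiM small RNA (25) were set beside uninjected cauda embryos (39). Injections were given 3 h after ICSI, and all injected embryos came from caput sperm.

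P-TEFb is a kinase, Cdk9, joined to a cyclin T, and it phosphorylates RNA polymerase II and the factors that hold it near promoters so that the polymerase moves into the gene body. Much of the P-TEFb in a cell is held inactive on the 7SK RNA, where Hexim1 or Hexim2 blocks the kinase, Larp7 binds and stabilises the RNA and Mepce caps it. Aff4 is the scaffold of the super elongation complex, which brings active P-TEFb to genes. In the mouse embryo the main wave of zygotic transcription falls in the 2-cell stage, while much maternal RNA is being degraded.

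Upstream sequences of 3 genes are shown because the genes moved in different ways at the 2-cell stage: Hexim1 rose most, Larp7 rose less and Ccnt2 fell. They are RefSeq sequences of build GRCm38.p6 printed 5′ to 3′ on the gene's strand, and each ends at the base before the annotated start (for Hexim1 the start in GENCODE M21, 94 bases upstream of the RefSeq start). Capitals mark matches, on either strand, to the TATA box motif TATANAA, the CCAAT box motif CCAAT and the GC box motif GGGCGG.
Hexim1, chr11:103116075-103116230, plus strand: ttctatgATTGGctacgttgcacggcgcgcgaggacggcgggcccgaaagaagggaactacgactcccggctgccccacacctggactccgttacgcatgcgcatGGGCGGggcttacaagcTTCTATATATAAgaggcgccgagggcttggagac
Ccnt2, chr1:127773914-127774163, plus strand: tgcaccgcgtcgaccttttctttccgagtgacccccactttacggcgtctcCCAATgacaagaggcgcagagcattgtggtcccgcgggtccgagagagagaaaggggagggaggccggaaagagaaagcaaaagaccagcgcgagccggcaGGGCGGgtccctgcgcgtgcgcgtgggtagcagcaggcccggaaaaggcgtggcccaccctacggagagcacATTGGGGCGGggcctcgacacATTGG
Larp7, chr3:127553350-127553599, minus strand: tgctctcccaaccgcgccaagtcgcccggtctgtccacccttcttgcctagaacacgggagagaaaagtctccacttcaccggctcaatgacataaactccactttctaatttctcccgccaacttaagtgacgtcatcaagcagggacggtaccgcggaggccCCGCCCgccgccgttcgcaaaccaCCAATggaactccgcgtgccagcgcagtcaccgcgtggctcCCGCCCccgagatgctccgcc
Among the 32851 RefSeq upstream windows of 250 bases, 10.4% held TATANAA, 33.9% held CCAAT and 32.7% held GGGCGG. The printed stretch of Hexim1 is shorter, at 156 bases, and its full RefSeq window of 250 bases held the same number of matches. Of the 3 stretches, the one of Hexim1 alone held the TATA motif, with 2 overlapping matches beginning 34 and 29 bases before its end, besides 1 CCAAT and 1 GC box match. Ccnt2 held 3 CCAAT and 2 GC box matches, 1 of each overlapping the other, and Larp7 held 1 CCAAT and 2 GC box matches. The windows of 250 bases before Cdk9, Ccnt1 and Aff4, which also rose, are not printed and held 0 TATA matches. Whether a motif went with a rise was not tested. A match describes the letters of the sequence and not a bound site.

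A group of 4 libraries stood apart, with a highest correlation under 0.85 to any other library of their table, and 3 of them carried markers that go against their stage label. Among embryos labelled 8-cell caput, 2 had trophectoderm markers summing to 15480 and 2767 TPM, against 24.6 to 292.2 TPM in the other 26. The range was 3145 to 17160 TPM in blastocysts of the first cohort. Among embryos labelled 8-cell cauda, 1 had maternal markers summing to 3840 TPM, against 50.4 to 334.9 TPM in the other 24, and it had Ccnt2 at 192.5 TPM and Ccnt1 at 5.64 TPM. The fourth, labelled a cauda morula of the testis cohort, had 4864 genes at 1 TPM or more, the fewest of all libraries (highest 12629, median 10627), and Ccnt2 at 0. Results at these stages are given with these libraries and, where stated, without them. The 8-cell comparison and the testis comparison of morulae had 0 of 8 members called either way. The morula means below include the fourth library. Without it the cauda morula means of the testis cohort were 13.9 TPM for Cdk9, 61.4 for Larp7, 3.06 for Mepce and 9.46 for Aff4. With it they were 13.7, 59.9, 2.97 and 9.70 TPM.

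All 8 genes changed between 18 and 28 h in 2-cell embryos, from caput and from cauda sperm alike. With caput sperm 6 rose and 2 fell, against a background in which 68.9% of all genes tested changed, 37% upward and 31.9% downward. With cauda sperm the same 6 rose and the same 2 fell, and 72.3% of all genes changed, 33.6% upward and 38.7% downward. A change was called at an adjusted p under 0.05 in limma, with Benjamini-Hochberg adjustment over all genes tested. Change over time was thus common to most genes tested, and the members' count is read against that background. The median log2 change of the 8 was 0.68 with caput and 0.98 with cauda sperm, beside 0.03 and -0.14 over all genes tested. TPM gives each gene's share of the RNA captured and sequenced from an embryo, and total RNA per embryo was not measured.

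The inhibitor genes Hexim1 and Hexim2 moved in opposite directions. They are neighbours on chromosome 11, Hexim1 at 103116325 to 103119725 and Hexim2 at 103123260 to 103139908 (GRCm38.p6), with 3534 bases between them. With caput sperm Hexim1 ranged from 0 to 5.60 TPM at 18 h (median 1.03, n = 19) and from 3.18 to 34.3 TPM at 28 h (median 20.2, n = 25). With cauda sperm the range was 0 to 6.61 TPM at 18 h (median 1.02, n = 25) and 0.88 to 36.7 TPM at 28 h (median 20.7, n = 24). All 25 caput and 23 of 24 cauda embryos at 28 h lay above the median of the 18 h embryos of the same sperm source, and the groups overlapped at their edges.

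On the log2(TPM + 1) scale Hexim1 rose by 3.22 ± 0.29 (SE) with caput sperm (limma, adjusted p = 5.36e-19) and by 3.02 ± 0.27 with cauda sperm (adjusted p = 3.62e-19). With a pseudocount of 0.1 TPM in place of 1 these rises were 4.53 and 4.13. Hexim2 fell by 1.66 ± 0.26 with caput sperm (limma, adjusted p = 1.1e-08), from a mean of 36.2 ± 9.31 TPM (SD) to 13.9 ± 10.5 TPM. With cauda sperm it fell by 1.18 ± 0.24 (limma, adjusted p = 8.21e-06), from 22.7 ± 6.54 TPM to 12.1 ± 8.32 TPM.

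The pair therefore changed places within the 2-cell stage. Hexim2 was above Hexim1 in 19 of 19 caput and 25 of 25 cauda embryos at 18 h, and its median share of their summed TPM was 97.9% and 95.6%. At 24 h Hexim2 was above Hexim1 in 9 of 11 and 6 of 8 embryos. At 28 h it was above Hexim1 in 6 of 25 caput and 8 of 24 cauda embryos, with median shares of 36.5% and 38.96%.

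Cdk9, the kinase itself (chromosome 2, 32705782 to 32712784), rose nearly as much as Hexim1 on the log2(TPM + 1) scale. That scale understates the rise of Hexim1, which was near 0 at 18 h. With a pseudocount of 0.1 TPM Hexim1 rose by 4.53 with caput and 4.13 with cauda sperm. The rise of Cdk9 was at most 3.14 and 2.98 in any alternative run. In caput embryos Cdk9 ranged from 3.83 to 15.4 TPM at 18 h (median 7.08). At 28 h the caput range was 35.1 to 156.3 TPM (median 59.3), so that the caput groups did not overlap. In cauda embryos it ranged from 0.96 to 15.4 TPM at 18 h (median 8.99) and from 8.81 to 98.4 TPM at 28 h (median 62.7), and 23 of 24 embryos at 28 h were above the 18 h median, with overlap at the edges. The rise was 2.98 ± 0.21 on the log2(TPM + 1) scale with caput sperm (limma, adjusted p = 2.45e-25) and 2.77 ± 0.20 with cauda sperm (adjusted p = 2.62e-25).

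**Figure D1:**
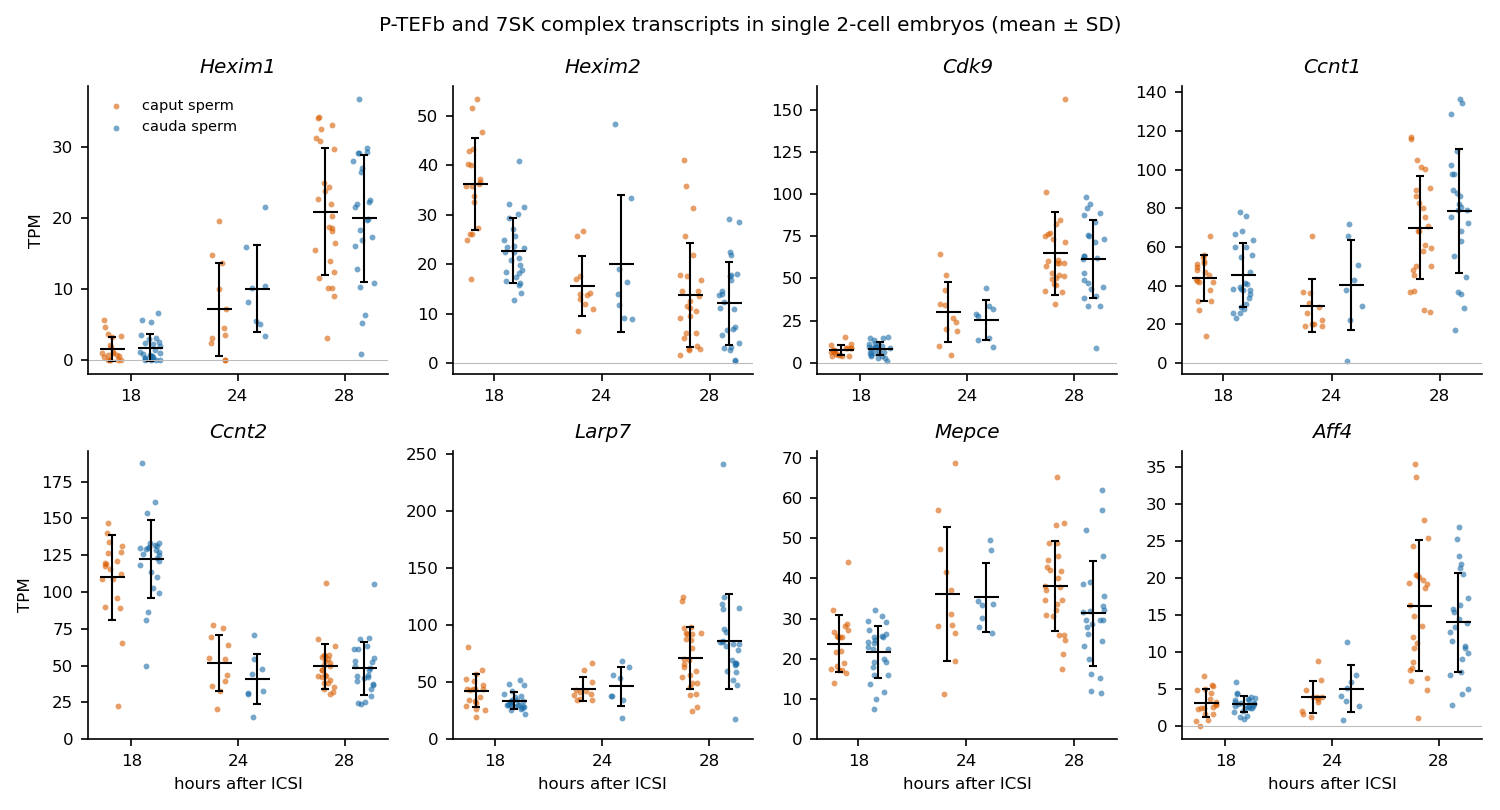
TPM (linear axes) of the 8 genes in single 2-cell embryos at 18, 24 and 28 h after ICSI, with 1 point per embryo and black bars for the mean ± SD. Hexim1, Cdk9 and Aff4 climb from 18 to 28 h in both sperm groups, Hexim2 and Ccnt2 fall, and the 18 h caput embryos sit higher for Hexim2 (mean 36.2 TPM) than the cauda embryos (22.7 TPM).

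The cyclin genes also went opposite ways. Ccnt2 (chromosome 1, 127774164 to 127804837) fell from a median of 117.3 TPM at 18 h (range 22.5 to 146.6) to 47.1 TPM at 28 h (range 30.5 to 105.9) with caput sperm. With cauda sperm it fell from a median of 127 TPM (range 49.9 to 187.3) to 45.4 TPM (range 23.7 to 105.2). None of the 28 h embryos of either sperm source was above the 18 h median of that source. On the log2(TPM + 1) scale the change was -1.12 ± 0.15 with caput sperm (limma, adjusted p = 1.57e-10) and -1.37 ± 0.14 with cauda sperm (adjusted p = 1.27e-15).

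Ccnt1 (chromosome 15, 98538690 to 98567736) rose by 0.73 ± 0.20 with cauda sperm (limma, adjusted p = 0.00075), from 45.4 ± 16.5 TPM to 78.6 ± 32.0 TPM. With caput sperm it rose by 0.58 ± 0.22 (limma, adjusted p = 0.0136), from 43.9 ± 11.7 TPM to 70.0 ± 26.6 TPM. That caput call was lost without any 1 of the 3 sessions (a session is the day code in the sample labels), at log2 values of 0.50 without session 114, 0.57 without session 122 and 0.68 without session 126 (limma, adjusted p = 0.0826, 0.0623 and 0.0505). Per embryo, Ccnt2 was above Ccnt1 in 19 of 19 caput and 24 of 25 cauda embryos at 18 h, and in 6 of 25 and 3 of 24 at 28 h. RefSeq places the gene 9330020H09Rik over the start of Ccnt1. The libraries' strand is not given in the sources used here, so reads from the overlap cannot be told apart.

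Larp7 and Mepce, which bind and cap the 7SK RNA, rose less than Hexim1, Cdk9 and Aff4. Larp7 (chromosome 3, 127536714 to 127553349) rose by 1.23 ± 0.15 with cauda sperm (limma, adjusted p = 1.98e-12), from 33.6 ± 7.48 TPM to 85.6 ± 41.4 TPM, and the largest 28 h value, 241.7 TPM, came from 1 cauda embryo. With caput sperm it rose by 0.72 ± 0.16 (limma, adjusted p = 3.69e-05), from 42.4 ± 14.5 TPM to 71.3 ± 27.2 TPM. Mepce (chromosome 5, 137781906 to 137786701) rose by 0.63 ± 0.16 with caput sperm (limma, adjusted p = 0.000293), from 23.8 ± 7.04 TPM to 38.03 ± 11.2 TPM. With cauda sperm Mepce rose by 0.48 ± 0.15 (limma, adjusted p = 0.00303), from 21.7 ± 6.50 TPM to 31.4 ± 13.1 TPM, and without session 122 the value was 0.24 (adjusted p = 0.249). The 7SK RNA itself (Rn7sk) was not analysed here.

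Aff4 (chromosome 11, 53350640 to 53421830) was among the least abundant members at 18 h and rose in both groups. In caput embryos it ranged from 0 to 6.78 TPM at 18 h (median 2.90) and from 1.04 to 35.4 TPM at 28 h (median 16.4). In cauda embryos it ranged from 1.00 to 5.91 TPM at 18 h (median 2.92) and from 2.88 to 26.9 TPM at 28 h (median 13.7). The rise was 2.00 ± 0.23 on the log2(TPM + 1) scale with caput sperm (limma, adjusted p = 3.55e-13) and 1.82 ± 0.22 with cauda sperm (adjusted p = 7.8e-13), and the groups overlapped.

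All 24 h embryos came from a single session of their own, so time and session cannot be told apart there and 24 h levels were not tested against the other times. Mean Hexim1 was 7.16 ± 6.51 TPM with caput and 10.1 ± 6.08 TPM with cauda sperm, between the 18 and 28 h means. Cdk9, at 30.3 ± 17.9 and 25.5 ± 11.9 TPM, and Hexim2, at 15.6 ± 5.99 and 20.1 ± 13.8 TPM, also lay between them. Ccnt2 was at 51.7 ± 18.8 and 40.8 ± 17.1 TPM, near its 28 h means of 49.5 and 48.1 TPM, while Aff4 was at 3.93 ± 2.17 and 5.02 ± 3.17 TPM, near its 18 h means of 3.12 and 2.95 TPM. Ccnt1 was at 29.5 ± 13.7 and 40.2 ± 23.2 TPM, Larp7 at 44.2 ± 10.7 and 46.3 ± 17.1 TPM and Mepce at 36.1 ± 16.7 and 35.3 ± 8.52 TPM.

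Other genes of the elongation machinery were taken as 7 lists of 63 genes. Of the 60 tested with caput sperm, 39 rose and 13 fell from 18 to 28 h, and of the 61 tested with cauda sperm, 37 rose and 13 fell, beside the backgrounds of 68.9% and 72.3% changed. Among 8 genes that release or recruit P-TEFb, 7 rose with caput and 6 with cauda sperm and none fell. They included Brd2, a bromodomain protein, from 37.4 ± 10.6 to 206.3 ± 90.6 TPM with caput sperm (limma log2 change 2.42 ± 0.15, adjusted p = 2.93e-28). They also included the splicing factor Srsf1, from 23.0 ± 6.06 to 185.2 ± 76.6 TPM (log2 change 2.83 ± 0.19, adjusted p = 7.47e-27). The median log2 change of that list was 0.86 with caput and 1.16 with cauda sperm.

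Of 9 partners of the super elongation complex tested, 6 rose and 2 fell in each sperm group, with medians of 1.24 and 1.19. Ell2, an elongation factor of that complex, rose by 2.22 ± 0.23 with caput sperm (9.26 to 51.8 TPM, limma, adjusted p = 3.03e-15). With cauda sperm its relative Ell fell by 1.18 ± 0.15 (130.5 to 58.2 TPM, adjusted p = 2.79e-12). Of the 6 genes of NELF and DSIF, the factors that hold the polymerase paused, 4 rose and 1 fell in each group, with medians of 1.37 and 1.38. Nelfb, a subunit of NELF, rose by 3.35 ± 0.33 with caput sperm (0.74 to 18.5 TPM, limma, adjusted p = 1.19e-16). Supt4a, a subunit of DSIF, rose by 2.35 ± 0.18 with cauda sperm (68.9 to 392.3 TPM, limma, adjusted p = 8.89e-23).

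Of the 12 RNA polymerase II subunits, 10 rose and 2 fell in each group, with medians of 1.58 and 1.91. The small subunit gene Polr2l went from 79.2 to 275.8 TPM with caput sperm (limma log2 change 1.77 ± 0.13, adjusted p = 3.04e-24). The other kinases and cyclins that act on the polymerase's tail gave 4 rises and 2 falls of 8 with caput sperm and 4 and 1 with cauda sperm, with medians of 0.37 and 0.39. Cdk12 rose by 0.97 ± 0.14 with caput sperm (limma, adjusted p = 1.41e-09). Of the 12 remaining elongation factors 5 rose and 4 fell with caput and 4 and 5 with cauda sperm, with medians of -0.01 and -0.19. The short-lived messages, which depend on P-TEFb in other cells, gave 3 rises and 2 falls in each group, of 5 and 6 tested. Mcl1, a survival gene, rose by 4.39 ± 0.30 with caput sperm (1.01 to 43.5 TPM, limma, adjusted p = 1.73e-26).

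**Figure D2:**
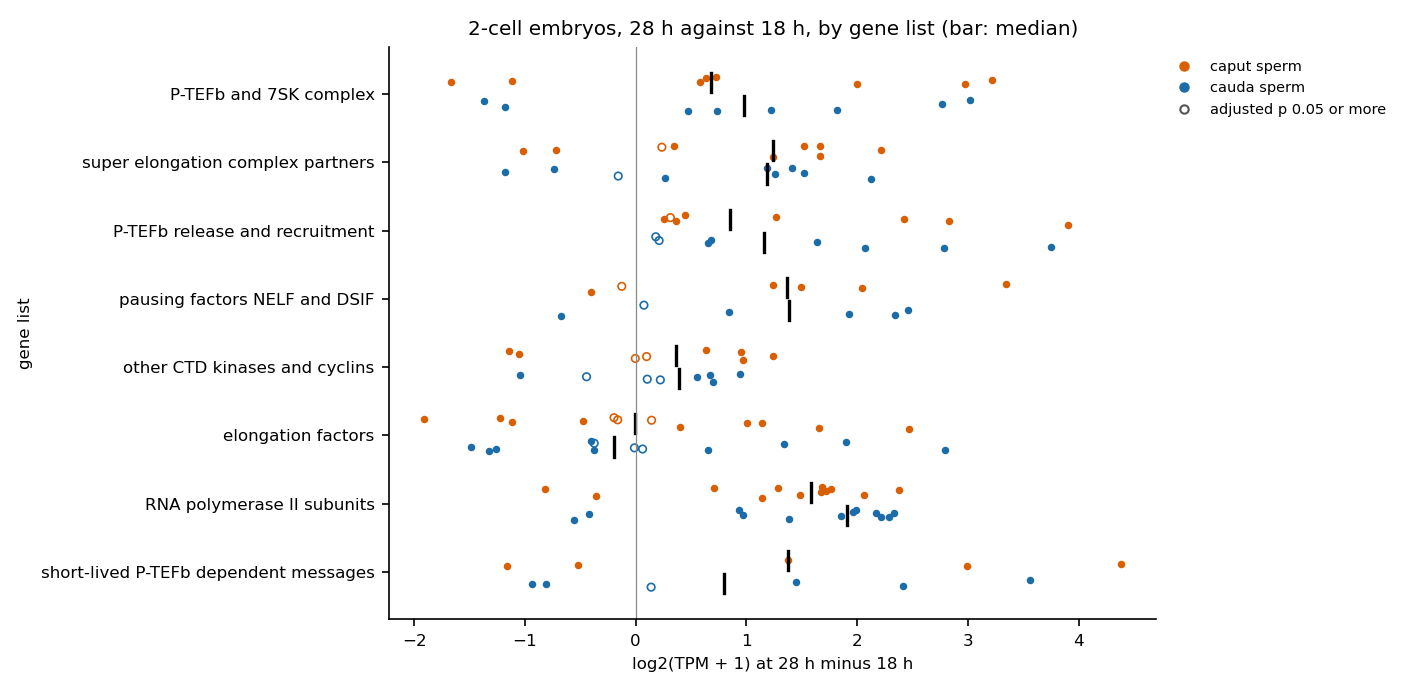
Difference between 28 h and 18 h in log2(TPM + 1) for each tested gene of 8 lists in 2-cell embryos, with filled points for adjusted p under 0.05 and a black bar for the list median. The RNA polymerase II subunits lie mostly above 0 (medians 1.58 and 1.91) and the elongation factors lie on both sides of it (medians -0.01 and -0.19).

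Several marker lists moved over the same hours. The 7 cumulus cell markers summed to a median of 11.2 TPM in caput embryos (range 3.90 to 28.0) and 15.8 TPM in cauda embryos (1.02 to 37.0) at 18 h, and to 3.04 TPM (0 to 17.5) and 2.76 TPM (0 to 11.2) at 28 h. Between 1 and 4 of the 7 were at 0 in every embryo of a group, and the aromatase gene Cyp19a1 fell with caput sperm (11.4 to 3.60 TPM, limma, adjusted p = 9.54e-07). The 4 sperm and spermatid markers had median sums of 10.9 and 5.39 TPM at 18 h (ranges 0 to 25.5 and 0 to 19.9) and 0 at 28 h (0 to 14.7 and 0 to 24.7), and only Prm2 reached a mean of 1 TPM. Of 5 maternal markers 2 rose and 2 fell in each sperm group, Gdf9 and Bmp15 falling with caput sperm by 1.25 and 1.31 (limma, adjusted p = 6.95e-15 and 7.5e-11). Of 5 genes of the 2-cell burst, 3 rose in each sperm group, and 2 fell with cauda sperm and 0 with caput sperm. Tcstv3 rose by 2.55 and Zfp352 by 1.88 with caput sperm (limma, adjusted p = 1.31e-17 and 2.15e-16). The part of these markers in the changes of the 8 genes was not tested.

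By sperm source, no member was called at any 2-cell time. At 18 h 0 of 8 were called and 0% of all 12899 genes tested were, with 415 at an unadjusted p under 0.05. At 24 h 0 of 8 were called beside 0.00746% of all genes, and at 28 h 0 of 8 beside 0.0759%. Nor was a change of the caput against cauda difference between times called for any member: 0 of 8 were called in each of the 3 contrasts (28 h against 18 h, 24 h against 18 h and 28 h against 24 h), in which 0% of all genes were called. This does not show that the differences were the same at all times. Larp7 had the smallest p of the members in the 28 h against 18 h contrast (log2 difference -0.50 ± 0.22, limma, p = 0.0232, adjusted p = 0.49). For 24 h against 18 h, Ccnt2 was at 0.539 ± 0.276 (limma, p = 0.0535) and Hexim2 at -0.895 ± 0.468 (p = 0.0582). With only those groups fitted, Hexim2 was at -0.903 ± 0.282 (limma, p = 0.00211, adjusted p = 0.433).

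Hexim2 at 18 h had the smallest p of the 8, and its call depended on which groups shared the fit. Caput embryos ranged from 17.1 to 53.3 TPM (median 36.2, n = 19) and cauda embryos from 12.8 to 40.9 TPM (median 22.4, n = 25). The groups overlapped, and 18 of 19 caput embryos were above the cauda median. The caput mean was higher within each of the 3 sessions, at 35.0 against 21.3 TPM in session 114, 40.01 against 25.2 TPM in session 122 and 35.3 against 20.8 TPM in session 126.

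In the fit over all 6 groups of the 2-cell table the Hexim2 difference was 0.69 ± 0.26 on the log2(TPM + 1) scale (limma, p = 0.00902, adjusted p = 1). With only the 18 h groups fitted the difference was 0.69 ± 0.13 (adjusted p = 0.0253) and Hexim2 was the only gene called, 0.00775% of those tested. That call was lost when the session term was also dropped (adjusted p = 0.0505), with embryos averaged within each session (0.728) and without any 1 session (0.444 to 0.986). The log2 difference itself stayed between 0.65 and 0.72 in every alternative run. These genes were chosen with that difference already known, so it is given as a description.

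At 28 h the Hexim2 difference was 0.20 ± 0.24 (limma, adjusted p = 0.8), and the sessions went different ways. Caput embryos averaged 6.20 against 13.7 TPM in session 114, 22.3 against 8.67 TPM in session 122 and 11.5 against 14.6 TPM in session 126. At 24 h caput embryos averaged 15.6 ± 5.99 TPM and cauda embryos 20.1 ± 13.8 TPM. The difference between the 28 h and 18 h sperm effects was -0.49 ± 0.35 (limma, adjusted p = 0.735).

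At 24 h the smallest p was that of Hexim1, which ranged from 0 to 19.6 TPM in caput embryos (median 4.47, n = 11) and from 3.48 to 21.6 TPM in cauda embryos (median 9.17, n = 8). The difference was -0.81 ± 0.43 (limma, adjusted p = 0.938). At 28 h it was that of Mepce, at 38.03 ± 11.2 TPM with caput and 31.4 ± 13.1 TPM with cauda sperm (log2 difference 0.32 ± 0.15, limma, adjusted p = 0.379). That value was 0.19 without session 114 and 0.57 without session 122 (adjusted p = 0.786 and 0.0766).

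**Figure D3:**
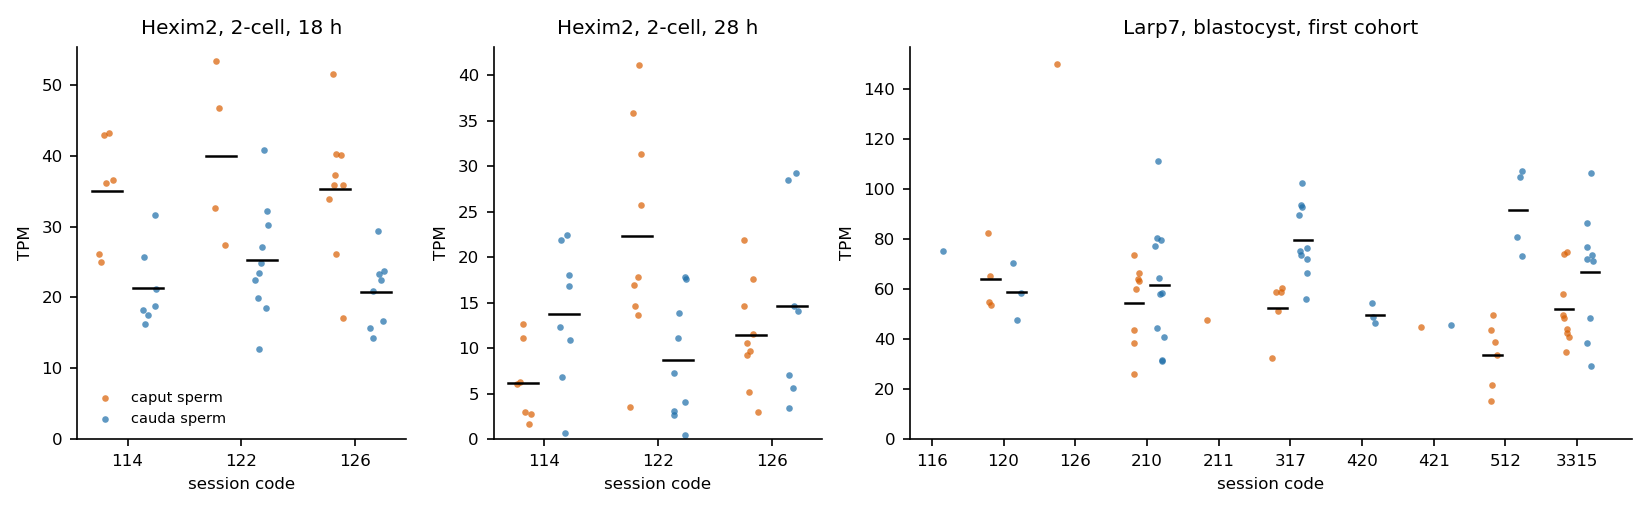
TPM per embryo by session, the day code in the sample labels, for Hexim2 in 2-cell embryos at 18 h and 28 h and for Larp7 in the first blastocyst cohort, with black bars for the mean where a session holds more than 1 embryo. Hexim2 is higher with caput sperm in all 3 sessions at 18 h, but only in session 122 at 28 h.

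After the 2-cell stage the 8 genes kept different levels. The stages lie in separate deposited tables, and the sources used here do not say whether these were processed together. Levels of the stages are therefore given as a description with no test, over uninjected groups. Ccnt1 was highest in 4-cell embryos, with group means of 109.3 to 139 TPM, above the 70.0 to 78.6 TPM of 28 h embryos, and it stood at 72.8 to 82.0 TPM in 8-cell embryos, 50.8 to 57.9 in morulae and 34.0 to 42.6 in blastocysts. Cdk9 means were 28.4 to 40.4 TPM at the 4-cell stage, 18.4 to 20.5 in 8-cell embryos, 13.7 to 19.6 in morulae and 11.3 to 18.7 in blastocysts. The ranges of Cdk9 in morulae and blastocysts overlapped. Without the libraries that stood apart, the 8-cell means were 76.6 and 85.2 TPM for Ccnt1 and 19.4 and 21.2 TPM for Cdk9 with caput and cauda sperm.

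Ccnt2 means were 22.1 to 30.7 TPM at the 4-cell stage, 37.4 to 40.5 in 8-cell embryos, 12.2 to 17.3 in morulae and 8.77 to 28.0 in blastocysts. Without the libraries that stood apart, the 8-cell means of Ccnt2 were 39.2 TPM with caput and 34.2 TPM with cauda sperm, in the other order from the 37.4 and 40.5 TPM of all embryos. Over all embryos, injected ones included, Ccnt2 was above Ccnt1 in 1 of 220 4-cell embryos, 4 of 53 8-cell embryos (3 of 50 without those libraries), 0 of 128 morulae and 28 of 420 blastocysts. Of those 28 blastocysts, 18 were in the first cohort, where the median share of Ccnt2 in the pair was 46.2% with caput and 43.4% with cauda sperm.

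Both Hexim genes were low after the 2-cell stage. Hexim1 means were 5.28 to 7.54 TPM in 4-cell embryos, 5.77 to 7.63 in 8-cell embryos, 1.44 to 2.84 in morulae and 1.72 to 3.20 in blastocysts. Hexim2 means were 1.27 to 2.90 TPM in 4-cell embryos, 1.96 to 1.98 in 8-cell embryos, 3.10 to 3.76 in morulae and 2.11 to 3.19 in blastocysts. Hexim2 was listed at 0 in none of 112 2-cell embryos, in 116 of 220 4-cell and 30 of 53 8-cell embryos, and in 17 of 128 morulae and 99 of 420 blastocysts, injected embryos included. The depth of the libraries is unknown, so a 0 gives no upper limit. With injected embryos included, Hexim2 exceeded Hexim1 in 31 of 220 4-cell embryos, 10 of 53 8-cell embryos, 84 of 128 morulae and 191 of 420 blastocysts. Without the libraries that stood apart, it did so in 9 of 50 8-cell embryos and 84 of 127 morulae, and it was at 0 in 29 of those 50 and 16 of those 127.

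Mepce means stood at 31.4 to 38.03 TPM in 28 h embryos and were 5.70 to 8.45 TPM in 4-cell embryos, 6.40 to 7.59 in 8-cell embryos, 2.16 to 2.97 in morulae and 1.52 to 2.79 in blastocysts. Larp7, its partner on the 7SK RNA, stayed at 42.5 TPM or more in all uninjected groups after the 2-cell stage, with means of 70.4 to 80.6 TPM in 4-cell embryos, 42.5 to 45.0 in 8-cell embryos, 51.5 to 59.9 in morulae and 53.3 to 74.4 in blastocysts. RefSeq places Mir302a, Mir302b, Mir302c, Mir302d and Mir367 within Larp7. Aff4 means were 9.45 to 13.4 TPM in 4-cell embryos, 13.2 to 16.1 in 8-cell embryos, 7.08 to 9.70 in morulae and 4.27 to 12.6 in blastocysts. Without the libraries that stood apart, the 8-cell means with caput and cauda sperm were 8.12 and 6.01 TPM for Hexim1, 1.97 and 2.06 for Hexim2, 46.3 and 42.8 for Larp7, 8.15 and 6.66 for Mepce and 13.6 and 15.9 TPM for Aff4.

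**Figure D4:**
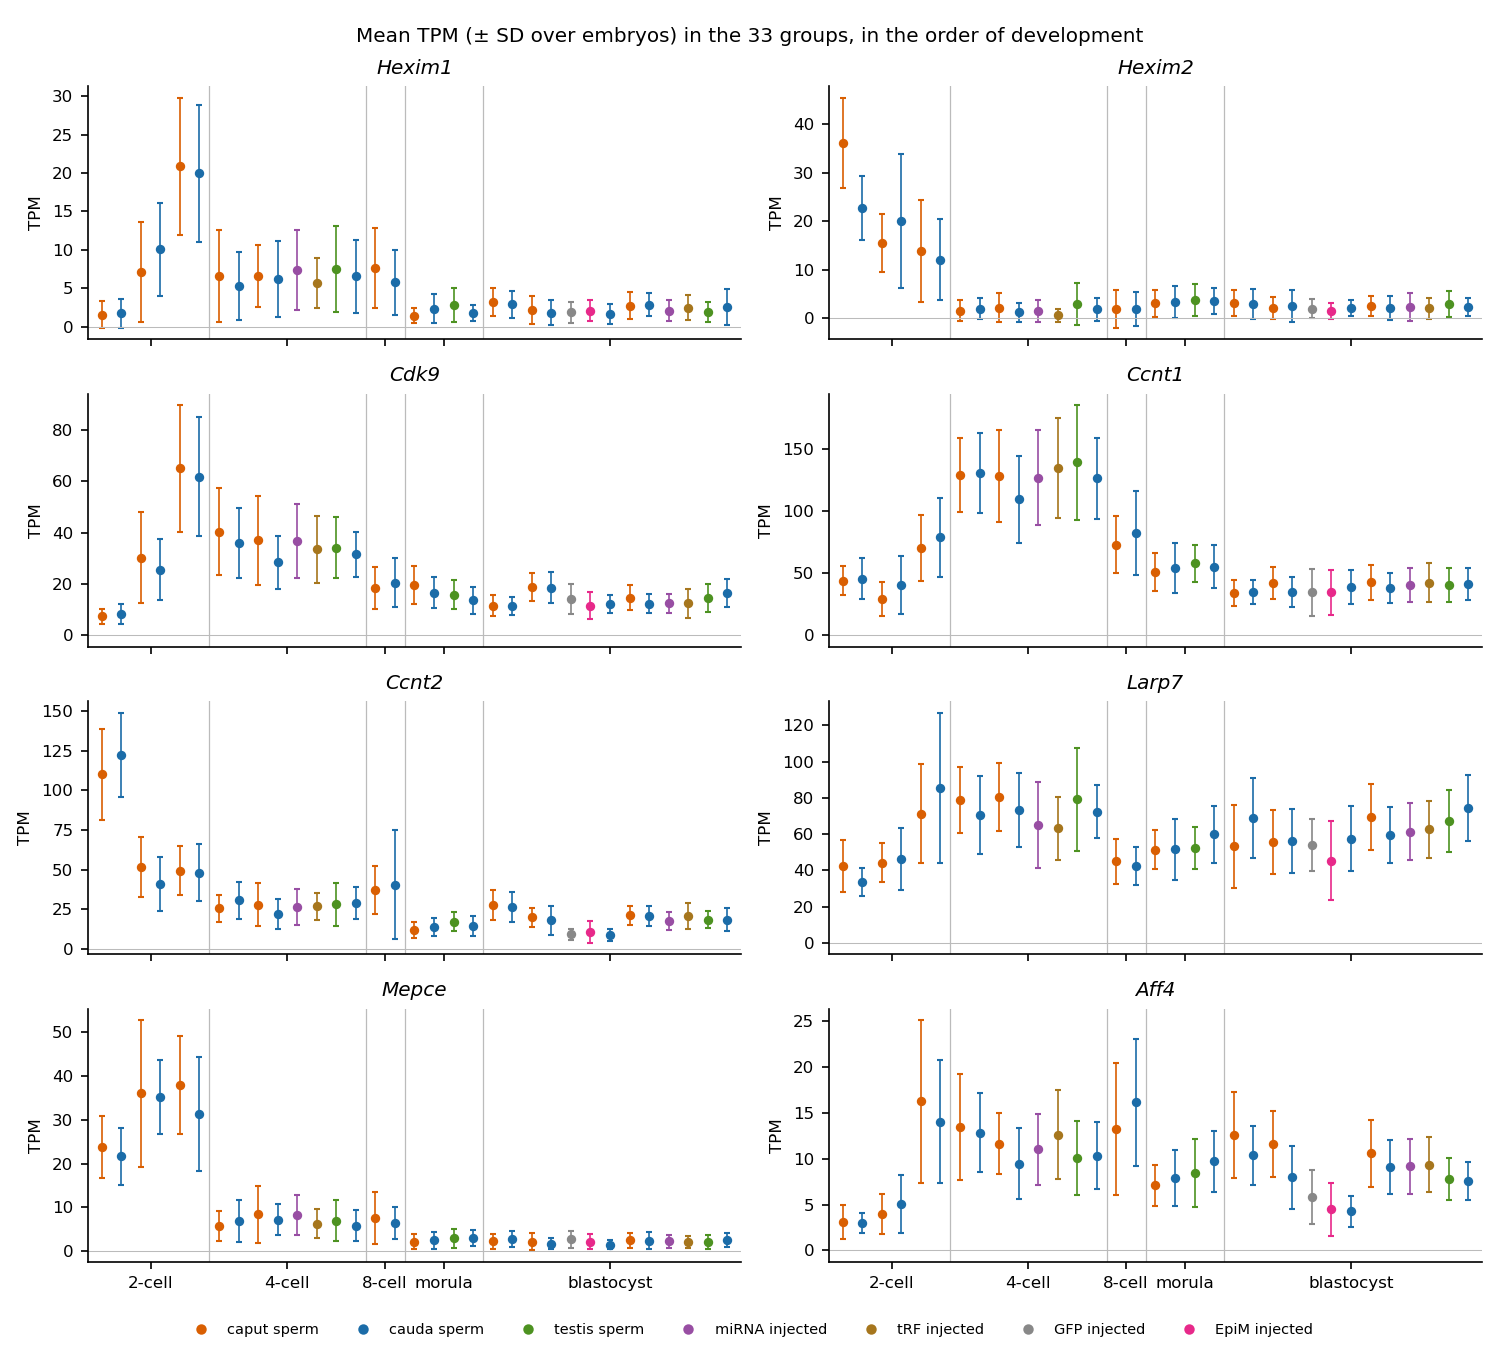
Mean TPM (linear axes) with SD over embryos for the 8 genes in the 33 groups, ordered by stage and coloured by sperm source or injected RNA. Cdk9 and Hexim1 peak in the 28 h 2-cell groups, Ccnt1 peaks in the 4-cell groups, and Mepce and Hexim2 are low in all groups from the 4-cell stage on.

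Across the 26 comparisons of sperm source or injected RNA, 1 of 208 tests of a member was called and 25 had an unadjusted p under 0.05. The call was Larp7 in the first blastocyst cohort, lower with caput sperm. Caput blastocysts ranged from 15.3 to 150.1 TPM (median 49.6, n = 35) and cauda blastocysts from 29.3 to 111.2 TPM (median 72.0, n = 42), so the groups overlapped, and 5 of the 35 caput values exceeded the median of the cauda group. The means were 53.3 ± 22.8 and 68.8 ± 21.8 TPM, a difference of -0.44 ± 0.12 on the log2(TPM + 1) scale (limma, adjusted p = 0.0362). In that cohort 1 of 8 members was called beside 2.12% of all genes.

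The Larp7 difference was not equally large in all sessions. The caput mean was lower in 5 of the 6 sessions that held both groups. Session 512 had 33.7 TPM for 6 caput against 91.6 TPM for 4 cauda embryos, and session 210 had 54.5 against 61.6 TPM. Session 421, counted among the 5, held 1 caput embryo at 44.7 TPM and 1 cauda embryo at 45.6 TPM. Without session 512 the difference was -0.27 (adjusted p = 0.388), without session 317 -0.40 (0.138) and without session 3315 -0.49 (0.0917, limma). The call was also lost with differences close to the main one: -0.40 without the session term (limma, adjusted p = 0.107), -0.44 without the filter on low values (0.0606) and -0.41 when embryos were averaged within each session (0.542). In a whole embryo, fewer cells of a type and less RNA per cell cannot be told apart. The primitive endoderm marker Sox17 was lower in the same caput blastocysts (6.09 ± 13.6 against 14.7 ± 18.8 TPM, limma, adjusted p = 0.0461). It was the only marker of its list called. The list's 3 markers summed to a median of 53.85 TPM with caput sperm (range 16.5 to 155.1) and 53.78 TPM with cauda sperm (25.5 to 113.3). None of the 4 trophectoderm or 3 inner cell mass markers was called. The part of these cells in the Larp7 result was not tested.

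No such difference was called in the second blastocyst cohort, where Larp7 averaged 55.6 ± 17.9 TPM with caput and 56.1 ± 17.6 TPM with cauda sperm, nor in the miRNA and tRF cohort, where it averaged 69.5 ± 18.3 and 59.7 ± 15.4 TPM. Whether the difference itself varied between cohorts was not tested. In the second cohort 0 of 8 members were called beside 0.28% of all genes, and in the miRNA and tRF cohort 0 of 8 beside 1.84%. Aff4 had the smallest p in the second cohort, at 11.6 ± 3.63 TPM with caput and 7.98 ± 3.44 TPM with cauda sperm (log2 difference 0.46 ± 0.14, limma, adjusted p = 0.134), and 28 of 34 caput embryos were above the cauda median. Without the session term the same difference was called (0.54, adjusted p = 0.0241). In the miRNA and tRF cohort Larp7 had the smallest p, with a log2 difference of 0.23 ± 0.10 (limma, adjusted p = 0.311).

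In the first 4-cell cohort 0 of 8 members were called by sperm source beside 1.12% of all genes. Larp7 had the smallest p there, at 78.9 ± 18.4 TPM with caput and 70.4 ± 21.4 TPM with cauda sperm (log2 difference 0.19 ± 0.10, limma, adjusted p = 0.501). In the second 4-cell cohort 0 of 8 were called beside 0.573%. Cdk9 stood at 37.1 ± 17.3 and 28.4 ± 10.3 TPM (0.39 ± 0.17, limma, adjusted p = 0.452). In 8-cell embryos 0 of 8 were called beside 0%. Most caput embryos there, those of session 108 among them, came from sessions with no cauda embryo. The caput libraries that stood apart came from such sessions as well. The fitted difference therefore rests on the sessions that held both groups, while the means use all embryos. Aff4 was at 13.2 ± 7.17 TPM with caput and 16.1 ± 6.95 TPM with cauda sperm (-0.52 ± 0.26, limma, adjusted p = 1), with -0.51 (adjusted p = 0.802) without the libraries that stood apart and -0.23 (adjusted p = 0.998) without session 425. In morulae 0 of 8 were called beside 0.859%, and Hexim1 was at 1.44 ± 0.96 and 2.35 ± 1.86 TPM (-0.34 ± 0.19, limma, adjusted p = 0.71).

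With testis sperm set against cauda sperm, 0 of 8 members were called in 4-cell embryos (beside 0.0174% of all genes), morulae (1.58%) or blastocysts (0%). Ccnt1 had the smallest p in 4-cell embryos, at 139 ± 46.0 TPM with testis and 126 ± 32.6 TPM with cauda sperm (log2 difference 0.13 ± 0.10, limma, adjusted p = 0.775). In morulae Hexim1 was at 2.84 ± 2.16 TPM with testis and 1.77 ± 1.02 TPM with cauda sperm (0.42 ± 0.16, limma, adjusted p = 0.144), and the difference was 0.38 without the library that stood apart (adjusted p = 0.137). In blastocysts the order of the Hexim1 means was the other way, 1.93 ± 1.31 and 2.61 ± 2.36 TPM (-0.44 ± 0.23, limma, adjusted p = 0.994).

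**Figure D5:**
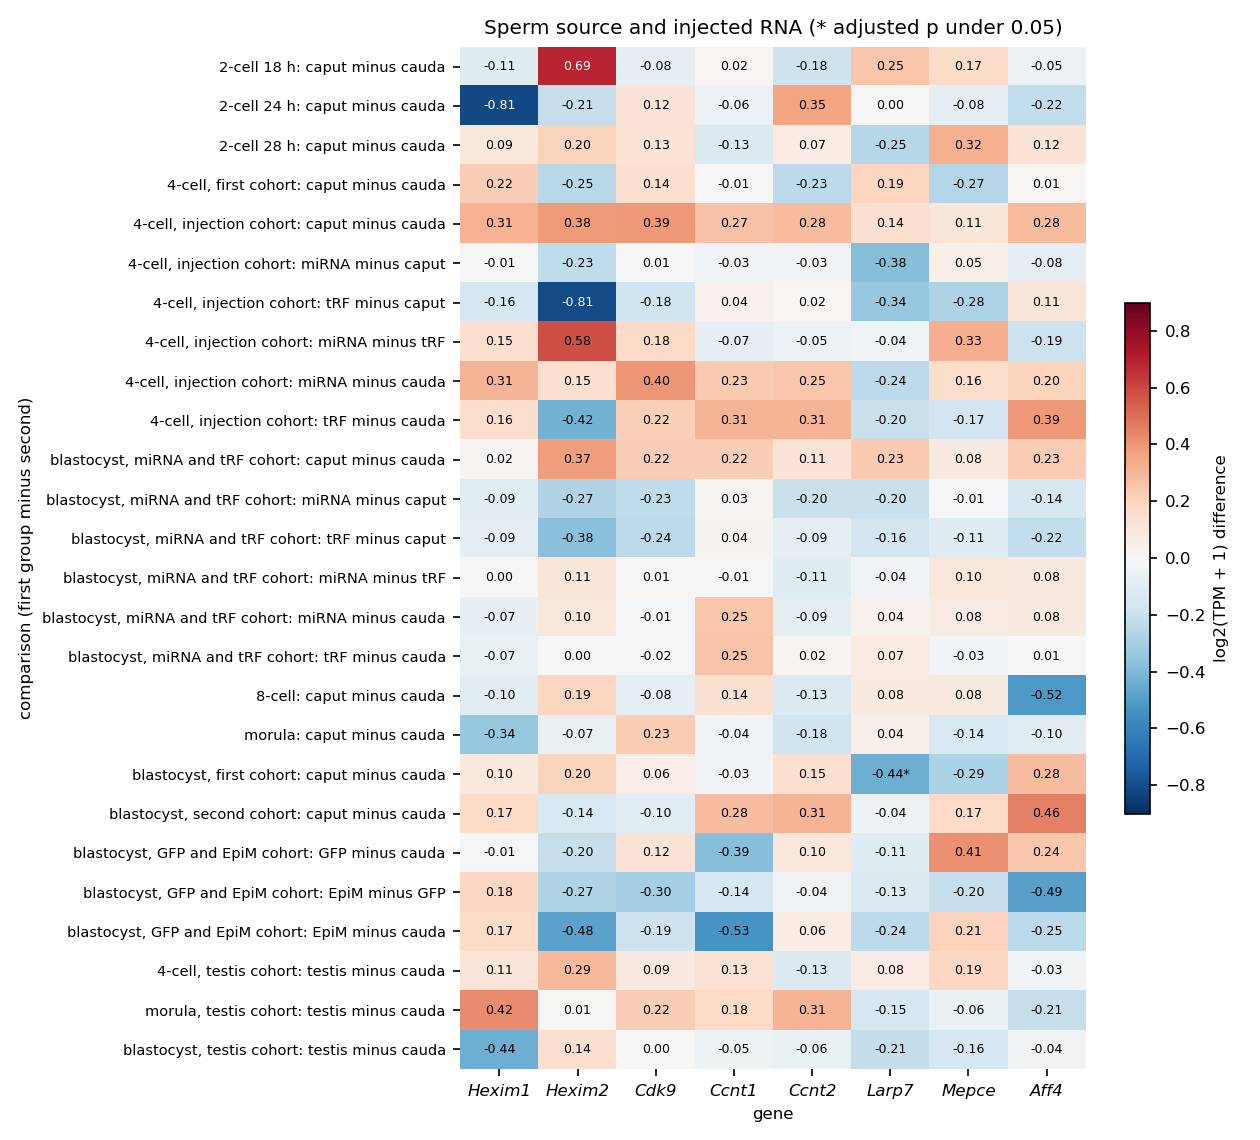
Difference in log2(TPM + 1) of each gene (columns) in the 26 comparisons of sperm source or injected RNA (rows, first group minus second), as fitted with limma, with an asterisk where the adjusted p was under 0.05. The values run from -0.81 to 0.69, and Larp7 in the first blastocyst cohort is the single marked cell.

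No member was called in a comparison of injected embryos. In 4-cell embryos 0 of 8 were called with miRNA against uninjected caput embryos (beside 1.26% of all genes), with tRF against caput (0.00861%), with miRNA against tRF (0.822%), with miRNA against cauda (0.96%) and with tRF against cauda (1.27%). These comparisons share their control embryos. Larp7 averaged 80.6 ± 18.9 TPM in uninjected caput, 65.1 ± 23.6 in miRNA, 63.1 ± 17.6 in tRF and 73.3 ± 20.2 TPM in cauda embryos. It had the smallest p for miRNA against caput (log2 difference -0.38 ± 0.14, limma, adjusted p = 0.158), and 7 of 22 miRNA embryos were above the caput median.

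Hexim2 had the smallest p for tRF against caput (-0.81 ± 0.32, limma, adjusted p = 0.411) and for miRNA against tRF (0.58 ± 0.33, adjusted p = 0.707). Its medians were 0.45 TPM in caput, 0.48 TPM in miRNA and 0 in tRF embryos, and the highest values were 8.90, 8.63 and 5.36 TPM, so most embryos lay near 0. Against cauda embryos, the smallest p was that of Cdk9 with miRNA (36.8 ± 14.5 against 28.4 ± 10.3 TPM, 0.40 ± 0.17, limma, adjusted p = 0.21) and that of Aff4 with tRF (12.6 ± 4.87 against 9.45 ± 3.85 TPM, 0.39 ± 0.15, adjusted p = 0.203).

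In blastocysts 0 of 8 members were called with miRNA against caput (beside 3.05% of all genes), with tRF against caput (0%), with miRNA against tRF (1.48%), with miRNA against cauda (0%) and with tRF against cauda (0.662%). Larp7 had the smallest p for miRNA against caput, at 61.3 ± 15.6 and 69.5 ± 18.3 TPM (-0.20 ± 0.10, limma, adjusted p = 0.421). For tRF against caput it was Aff4, at 9.31 ± 2.99 and 10.6 ± 3.65 TPM (-0.22 ± 0.11, adjusted p = 0.823), and for miRNA against tRF it was Ccnt2, at 17.7 ± 5.62 and 20.9 ± 8.37 TPM (-0.11 ± 0.11, adjusted p = 0.989). Ccnt1, at 40.4 ± 13.5 TPM with miRNA, 42.3 ± 15.9 with tRF and 38.1 ± 11.8 TPM in cauda embryos, had the smallest p against cauda embryos for both RNAs (limma, adjusted p = 0.986 and 0.726).

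In the cohort injected with GFP or EpiM small RNA, 0 of 8 were called for GFP against cauda (beside 0.455% of all genes), EpiM against GFP (0.466%) and EpiM against cauda (0%). Mepce was at 2.67 ± 1.89 TPM with GFP and 1.52 ± 1.00 TPM in cauda embryos (0.41 ± 0.20, limma, adjusted p = 0.311). Aff4 was at 4.46 ± 2.88 TPM with EpiM and 5.85 ± 2.96 TPM with GFP (-0.49 ± 0.20, limma, adjusted p = 0.667). Without session 208 that Aff4 difference was -0.94 and passed the test (adjusted p = 0.0371). Ccnt1 was at 34.4 ± 18.0 TPM with EpiM and 39 ± 13.6 TPM in cauda embryos (-0.53 ± 0.22, limma, adjusted p = 0.457).

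Among the other 63 genes of the elongation machinery, 10 were called in at least 1 of the 26 comparisons, in 20 tests upward and 10 downward of 1514. That is 1.98% of the tests, beside 0.722% of all 310412 tests of a gene in the same comparisons, and the genes that release or recruit P-TEFb gave 13 of the upward and 8 of the downward calls. The genes called most often were Srsf2 and Srsf1, SR proteins known to take part in release of P-TEFb from the 7SK complex besides their work in splicing. Srsf2 was higher in 6 comparisons and lower in 4, and Srsf1 was higher in 5 and lower in 3. Together they gave most of the 30 calls, in comparisons that share embryos. The lists were chosen with earlier results of these data known, so their share of calls is given as a description. In the second 4-cell cohort Srsf2 was at 266.7 ± 71.0 TPM in caput and 151.4 ± 105 TPM in cauda embryos (log2 difference 1.16 ± 0.25, limma, adjusted p = 0.00428), and at 129.6 ± 93.1 TPM with miRNA (-1.40 ± 0.25 against caput, adjusted p = 0.000115). With tRF it was at 306.6 ± 98.8 TPM (1.39 ± 0.25 against cauda, limma, adjusted p = 0.000251). In the first blastocyst cohort Brd2, Ccnk, the cyclin of Cdk12, and Supt6, an elongation factor, were higher with caput sperm (log2 differences 0.43, 0.54 and 0.63, limma, adjusted p = 0.0495, 0.0307 and 0.025). They were the 3 genes called of 58 tested there, beside 2.12% of all genes. In the second blastocyst cohort 0 of 59 were called.

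The genes whose level followed the Hexim genes most closely over the 33 group means were found by Spearman's rank correlation among the 12704 genes whose mean reached 5 TPM in some group. For Hexim1 they were Mknk2 (rho = 0.92), Rab11fip5 (0.91), Sbno1 (0.90), Son (0.89) and Rimbp3 (0.88). Those reported for Hexim2 were Lrrfip2 and Ccdc92 (each 0.93), Hsd17b7 (0.92) and Zbtb32 (0.92). Groups of a table share sessions, and stage sets most of the spread, so these values describe likeness of pattern alone. In cauda embryos Mknk2 stood at 4.75 TPM at 18 h, 34.0 TPM at 28 h, 28.2 TPM in the first 4-cell cohort and 8.57 TPM in the first blastocyst cohort. Lrrfip2 stood at 172.6, 80.0, 12.5 and 22.0 TPM in the same groups.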

How the data were processed

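The members and gene lists were chosen with earlier results of these data known. The authors deposited TPM values per gene and embryo in 12 tables; per the submitters' processing notes, Bowtie and mm10 were used, and other steps are not given in the sources used here. TPM keeps no depth, so no counting interval is given. The labels' protocols state 28 h for every sample, whereas the 2-cell labels give 18, 24 and 28 h, which were used. In the GFP and EpiM cohort, 2 session codes on which labels disagree were merged. The 4 columns that match no sample were not used.

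Differences were fitted on log2(TPM + 1) with limma 3.58.1 in R 4.3.3, with group and session as terms over all groups of a table, moderated variances (trend, robust) and p-values adjusted by Benjamini-Hochberg over all genes. The filter kept genes where the embryos at 1 TPM or more numbered at least 50% of the smaller group. Such changes understate those of low genes. Nothing ties embryos to sires or females, so p-values measure the spread between embryos. Named genes were all 8 members, in full where called and otherwise the member of smallest p in a comparison, at most 2 called genes per list and comparison by smallest p, and the 5 genes most like Hexim1 and Hexim2. Some genes that this rule names are not reported here. Alternatives were a pseudocount of 0.1 TPM, no filter, no session term, embryo number as a block, means per session, rescaling by median of ratios and leaving out each session. Fits of only the compared groups, and fits without libraries standing apart, were added after seeing the data. Positions and sequences are from RefSeq GRCm38.p6, the build of mm10, with upstream sequence for 6 of the 8 members.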

Additional observations from a re-analysis of the deposited data

How the results depend on the processing

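Of 29 counts of members called or of differing sperm effects, 25 kept their count within 1.5 times in every alternative run. The count at 18 h by sperm source went from 0 to 1 (Hexim2) with only the compared groups in the fit, alone or with the replicate block of embryo number, and was 0 with that fit and also no session term, means per session or a session left out. The count in the first blastocyst cohort went from 1 to 0 without the filter, without a session term and with means per session, and ranged from 0 to 1 over sessions left out. The count in the second blastocyst cohort went from 0 to 1 (Aff4) with no session term. That for EpiM against GFP ranged from 0 to 1 over sessions left out. From 18 to 28 h, the counts over sessions left out were 7 with caput sperm and from 7 to 8 with cauda sperm, and were 8 in the other alternatives. Of 224 member differences, 97 changed sign in some alternative; none of these was called in either direction, and the largest was 0.31 in size on the log2 scale in the fits reported. The called members and the member of smallest p in each comparison kept their direction in every alternative run. Of 25 such smallest-p differences by sperm source or injected RNA with a session to leave out, 13 moved by over 1.5 times without some session. The cause of these shifts was not tested. Embryo numbers are shared by groups, and whether they pair embryos is not settled. Of 585 same-numbered pairs in 23 comparisons, 181 correlated above 0.1, and in no comparison did every pair. Real pairing need not lift every pair above that value, so the rule cannot exclude it. The median correlation of a comparison ran from -0.113 to 0.239, the highest for miRNA against caput blastocysts. With the replicate block the main counts were unchanged (8 and 8 from 18 to 28 h, 1 in the first blastocyst cohort, 0 elsewhere). The correlation within a block was estimated at -0.0586 to 0.0685, so these fits were bound to lie close to the main ones. The cohort of GFP and EpiM has no usable numbers. Rescaling by median of ratios moved the median of all genes by -0.10 at 28 h and -0.11 in the second blastocyst cohort, with no change in the member counts. Leaving out the only 24 h session allowed no fit. Depth is unknown, which limits what can be said of members near 0 TPM, above all Hexim2 from the 4-cell stage on.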

Other observations

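Over the 33 group means, the members closest to each other in rank were Ccnt2 and Mepce (Spearman's rho = 0.79) and Hexim1 and Cdk9 (0.71), while Hexim1 and Hexim2 had rho = -0.31 and Ccnt1 and Ccnt2 0.29. These groups share tables, sessions and stages, and the values are a description.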
